A study of Mus musculus with 6 samples.

Results

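The late cornified envelope genes Lce1a1, Lce1b, Lce1l and Lce1m were set against Lce3a, Lce3b, Lce3c, Lce3d, Lce3e and Lce3f in mouse epidermis. The members were taken by symbol, and all 10 were found among the 41214 gene identifiers counted in every library. The libraries were 3 labelled ARPC4 ko and 3 labelled wt, all from the epidermis of trypsinized skin of C57BL/6 mice aged 4 days after birth. ARPC4 belongs to the Arp2/3 complex, the nucleator of branched actin networks, and the series title places the knockout in the epidermis. The labels name neither a Cre line nor the deleted exons, and they do not say that the 3 libraries of a group came from separate mice, so every p-value measures the spread between these libraries, which may be technical.

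Late cornified envelope proteins are small proteins that keratinocytes make at the end of differentiation, when transglutaminases cross-link proteins into the insoluble shell of the dead cell, the cornified envelope. Their genes lie in the epidermal differentiation complex, together with loricrin, the filaggrin family and the small proline-rich (Sprr) genes. In human skin, genes of the LCE1 group are expressed in healthy epidermis, whereas genes of the LCE3 group are low there and are raised in psoriasis and after injury to the barrier.

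Every member of the Lce3 group had a higher level in each library labelled ko than in any library labelled wt, and none of the 4 Lce1 members did. Of all genes tested 11.3% had that order, as did 2 of the 10 other measured Lce genes, Lce1j and Lce1k. The median log2 fold change, ko over wt, was 3.76 over the 6 Lce3 genes and -0.16 over the 4 Lce1 genes, against 0.021 over all 13704 genes tested. Only Lce3a rose by the test used throughout, edgeR's quasi-likelihood test with Benjamini-Hochberg adjustment over all genes tested and a threshold of 0.05. It is the Lce3 gene with the fewest reads, 2 in all wt libraries, and the call was lost under other settings given below. The other 5 Lce3 genes had adjusted p-values between 0.0658 and 0.107. Over all genes that test called 30 higher, which is 0.219% of those tested, and 0 lower.

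Each library held between 17561294 and 22659511 counts in genes. Reads that aligned to several places were left out of the gene counts by the authors and made up 32.4 to 40.9% of each library's listed reads. Keratinocyte identity was plain, with Krt1 and Krt10, the keratins of the spinous layer, between 31502 and 70327 CPM in every library (CPM are TMM-scaled counts per 1000000). Arpc4 itself had 67.5, 65.6 and 64.5 CPM in the libraries labelled ko and 72.5, 82.5 and 73.1 CPM in those labelled wt, a log2 fold change of -0.21 (SE 0.10, edgeR adjusted p = 0.469). Each library labelled ko was below each labelled wt, but the mean ratio was 0.866, so the gene count did not show a loss of the transcript. It is no firm check of the labels, and the directions below are between libraries as labelled.

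All 10 genes lie on chromosome 3 (mm10), and no other tested gene lies between the 6 Lce3 genes. They run from Lce3a (minus strand, 92925287 to 92926230) through Lce3b (92932979 to 92934097), Lce3c (92944486 to 92945733), Lce3d (92957390 to 92958505) and Lce3e (92967061 to 92968281) to Lce3f (92992226 to 92993426). Lce3b to Lce3f lie on the plus strand, and the stretch spans 68.1 kb, with the small nuclear RNA genes Gm24481 and Gm22577 annotated inside it and not tested. On one side, after 74.0 kb, lies Lce1l (92849949 to 92851286), and farther out are Lce1b (92655650 to 92656926) and Lce1a1 (92646535 to 92648307). On the other side, after 24.4 kb, lies Lce1m (93017810 to 93019060). The 4 Lce1 members are on the minus strand. Lce1m is thus separated from the other Lce1 members by the whole Lce3 stretch.

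The sequences around the start sites are shown because most of the Lce3 genes share letters there that the Lce1 members lack. RefSeq windows on GRCm38.p6, the assembly of mm10, were found for all 10 members and ran from 250 bases before to 50 after the start. Of each window, 130 bases (110 before to 20 after the start) are printed 5′ to 3′ on the gene's own strand for the Lce3 genes and, for contrast, for Lce1b and Lce1m. Capitals mark the words TTGTGAAA and ATAAAA, both picked after the sequences were read. The printed stretches and their strands are Lce3a chr3:92926211-92926340 (minus), Lce3b chr3:92932869-92932998 (plus), Lce3c chr3:92944376-92944505 (plus), Lce3d chr3:92957280-92957409 (plus), Lce3e chr3:92966951-92967080 (plus), Lce3f chr3:92992107-92992236 (plus), Lce1b chr3:92656907-92657036 (minus) and Lce1m chr3:93019042-93019171 (minus).
Lce3a: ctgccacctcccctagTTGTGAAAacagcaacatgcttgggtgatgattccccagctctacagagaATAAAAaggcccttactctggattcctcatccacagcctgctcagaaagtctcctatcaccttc
Lce3b: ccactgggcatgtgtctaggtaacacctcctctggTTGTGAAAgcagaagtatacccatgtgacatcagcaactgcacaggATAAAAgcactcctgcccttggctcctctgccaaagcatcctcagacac
Lce3c: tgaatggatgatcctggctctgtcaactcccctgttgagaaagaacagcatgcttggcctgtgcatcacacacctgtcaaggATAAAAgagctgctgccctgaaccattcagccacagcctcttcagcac
Lce3d: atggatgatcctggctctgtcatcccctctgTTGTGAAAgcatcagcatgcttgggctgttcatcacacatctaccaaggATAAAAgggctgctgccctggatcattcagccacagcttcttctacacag
Lce3e: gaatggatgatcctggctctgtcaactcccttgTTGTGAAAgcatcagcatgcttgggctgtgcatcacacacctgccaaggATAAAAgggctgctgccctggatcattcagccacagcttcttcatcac
Lce3f: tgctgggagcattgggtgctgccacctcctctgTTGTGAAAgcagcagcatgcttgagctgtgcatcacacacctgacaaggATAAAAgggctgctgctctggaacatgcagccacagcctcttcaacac
Lce1b: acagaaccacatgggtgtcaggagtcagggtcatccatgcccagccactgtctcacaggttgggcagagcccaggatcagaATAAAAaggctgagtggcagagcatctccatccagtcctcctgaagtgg
Lce1m: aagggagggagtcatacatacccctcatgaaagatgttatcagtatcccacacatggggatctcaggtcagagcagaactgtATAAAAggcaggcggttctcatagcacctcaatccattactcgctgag

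The word TTGTGAAA, searched on both strands, was in the 300-base windows of 5 of 6 Lce3 genes and 0 of 4 Lce1 members, in 0 of the 10 other Lce genes searched and in 1.17% of 32851 RefSeq promoter windows. In Lce3b, Lce3d, Lce3e and Lce3f it began 75 to 79 bases before the start, and in Lce3a 94 bases before. Lce3c reads ttgagaaa at 76 bases before the start. The A/T-rich word ATAAAA was in 6 of 6 Lce3 and 3 of 4 Lce1 members, all but Lce1a1. It was also in 10 of the 10 other Lce genes searched, most of them Lce1 genes, and in 18.5% of all windows. Apart from Lce3a, where it began 44 bases before the start, each of the members with the word had a copy 28 to 30 bases before it. The 10 other Lce genes searched included Lce1d but not Lce1f, for which no 300-base window was found.

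Motifs of factors known in keratinocytes were searched on both strands in the same windows. The C/EBP pattern TTNCNNAA was in 6 of 6 Lce3 and 0 of 4 Lce1 members, against 40.7% of all windows and 3 of 10 other Lce genes (Lce1j, Lce1k and Lce6a), and TTGTGAAA is itself a match to it on the opposite strand. The antioxidant response core TGACNNNGC, the letters bound by Nrf2, was in Lce3c, Lce3d and Lce3e, in 0 of 4 Lce1 members and in 12.4% of all windows, and also in Lce1d and Lce6a of the 10 other Lce genes. The AP-1 pattern TGANTCA was in none of the 10 members and in 7.81% of all windows. The KLF pattern GGGTG was in Lce3a, Lce3f and Lce1b, in 5 of 10 other Lce genes and in 57.5% of all windows. The STAT pattern TTCNNNGAA was in Lce1l alone and in 8.30%. The letters TATAAA of the TATA box were in Lce1m and Lce3e and in 13.6% of all windows. In Lce1m they began 29 bases before the start and overlap ATAAAA. In Lce3e they lay on the opposite strand, 243 bases before the start. A match is a run of letters and was not tested as a binding site.

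Aligned pairwise, the windows of the Lce3 genes were 54.1 to 83.1% identical (15 pairs, median 56.8%), with Lce3d and Lce3e the closest pair. Lce1 members were 48.1 to 67.5% identical among themselves (6 pairs, median 49.6%). Across the groups identity was 44.9 to 52.4% (24 pairs, median 48.3%).

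Lce3c was the most abundant Lce3 gene per kb of exon. It had 74.9, 147.0 and 63.8 CPM in the libraries labelled ko, against 23.4, 29.4 and 17.1 CPM in those labelled wt. Replicate 2 was the highest of the ko libraries, and the groups did not overlap. The log2 fold change was 2.03 (SE 0.36, 95% interval 1.17 to 2.89), with an edgeR adjusted p of 0.0879.

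Lce3e had 14.0, 43.5 and 11.7 CPM in the ko libraries and 2.77, 4.63 and 2.45 CPM in the wt libraries. Again ko replicate 2 stood above the other two, and each ko value exceeded each wt value. Its log2 fold change was 2.82 (SE 0.58, 95% interval 1.44 to 4.20, edgeR adjusted p = 0.107), and 1.98 without ko replicate 2.

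Lce3d, its closest relative by promoter, was at 6.66, 23.7 and 9.44 CPM in the ko libraries, against 0.924, 0.904 and 0.997 CPM in wt. The wt values were nearly equal and all ko values lay far above them. Lce3d had a log2 fold change of 3.80 (SE 0.56, 95% interval 2.47 to 5.13, edgeR adjusted p = 0.0658), and 3.09 without ko replicate 2.

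Lce3f was at 5.12, 18.5 and 6.56 CPM in ko and at 0.616, 1.22 and 0.453 CPM in wt. Replicate 2 was the highest in both groups, without overlap between them. The log2 fold change of Lce3f was 3.73 (SE 0.65, 95% interval 2.17 to 5.28, edgeR adjusted p = 0.0852), and 2.95 without ko replicate 2.

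Lce3b and Lce3a were close to the detection limit in wt. Lce3b had 18, 53 and 60 counts in the ko libraries and 1, 5 and 0 in the wt libraries. Here ko replicates 2 and 3 were level, at 3.13 and 3.15 CPM, and ko replicate 1 was lower, at 0.895 CPM. Lce3b had a log2 fold change of 4.55 (SE 0.88, 95% interval 2.51 to 6.59, edgeR adjusted p = 0.0885). With wt replicate 2, which held 5 of the 6 wt counts, left out it was 6.38, without wt replicate 3 it was 3.96, and in the dated libraries alone 3.67.

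Lce3a had 14, 40 and 34 counts in ko and 1, 1 and 0 in wt. Almost all of its reads were therefore in the ko libraries, at 0.696, 2.37 and 1.78 CPM. Its log2 fold change was 5.40 (SE 0.77, 95% interval 3.69 to 7.12, edgeR adjusted p = 0.0407), the only call among the members. With 2 wt reads in all, the fold rests on few counts: scaled for depth, 88 ko counts against 2 wt counts gave a ratio of 49.9 with an exact 95% interval of 13.4 to 418, which covers counting error only. The call was lost when ko replicate 2 (edgeR adjusted p = 0.123) or wt replicate 1, 2 or 3 (0.378, 0.206 and 0.103) was left out. It was also lost with the older quasi-likelihood fit (0.0722), limma-voom (0.0852) and the dated libraries alone (0.0558), and a filter of 1 CPM in 3 libraries removes the gene.

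**Figure D1:**
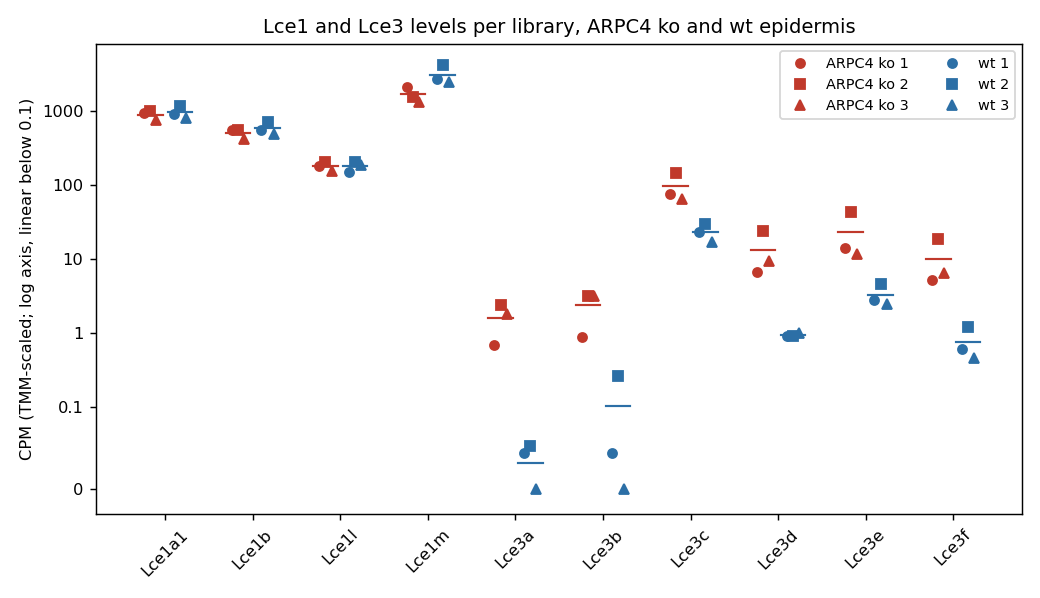
Level of each member in each library, in CPM on a log axis that is linear below 0.1, with libraries labelled ko left of those labelled wt. Points are libraries and bars are group means. All 6 Lce3 genes separate the groups, and of the Lce1 members only Lce1m does, with its ko libraries lower.

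The 6 Lce3 genes thus shared 1 ordering of the groups. Of all genes tested, 11.3% had every ko library above every wt library. The unadjusted edgeR p was under 0.05 for all 6 Lce3 genes and for 7.98% of genes in the higher direction. DESeq2 called all 6 higher, with adjusted p-values from 1.48e-10 to 0.000337, and 2.82% of the genes it tested. limma-voom called 0 of the 6, and 0 of all 13704 genes; its unadjusted p was at most 0.00701 for the Lce3 genes. All 6 passed the filter on low counts, Lce3a and Lce3b through the ko libraries.

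Among the Lce1 members, Lce1m was the one whose groups did not overlap. It had 2106, 1560 and 1329 CPM in the ko libraries, against 2696, 4105 and 2440 CPM in the wt libraries. Every ko library was below every wt library, as for 8.03% of all genes. The log2 fold change was -0.89 (SE 0.28, 95% interval -1.56 to -0.22), with an edgeR adjusted p of 0.251. The unadjusted edgeR p was 0.0168, and 5.25% of genes were lower at an unadjusted p under 0.05. DESeq2 gave an adjusted p of 0.0415, where it called 1.43% of its genes lower.

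Lce1a1 had 933, 981 and 747 CPM in ko and 911, 1174 and 799 CPM in wt, with overlapping groups. Its log2 fold change was -0.12 (SE 0.20, 95% interval -0.60 to 0.37, edgeR adjusted p = 0.879). Lce1b overlapped as well, at 552, 550 and 421 CPM in ko, against 546, 715 and 481 CPM in wt. For Lce1b the log2 fold change was -0.19 (SE 0.20, 95% interval -0.68 to 0.29, edgeR adjusted p = 0.778).

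Lce1l, the Lce1 member nearest to Lce3a, had 179, 204 and 154 CPM in ko and 149, 206 and 187 CPM in wt. Its log2 fold change was -0.011 (SE 0.17, 95% interval -0.42 to 0.40, edgeR adjusted p = 0.989). The highest upper bound among the Lce1 members was thus 0.40 and the lowest lower bound among the Lce3 genes 1.17. Among the wt libraries replicate 2 was the highest for all 4 Lce1 members and for 5 of 6 Lce3 genes. Among the ko libraries replicate 3 was the lowest for all 4 Lce1 members, and replicate 2 the highest for 5 of 6 Lce3 genes.

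**Figure D2:**
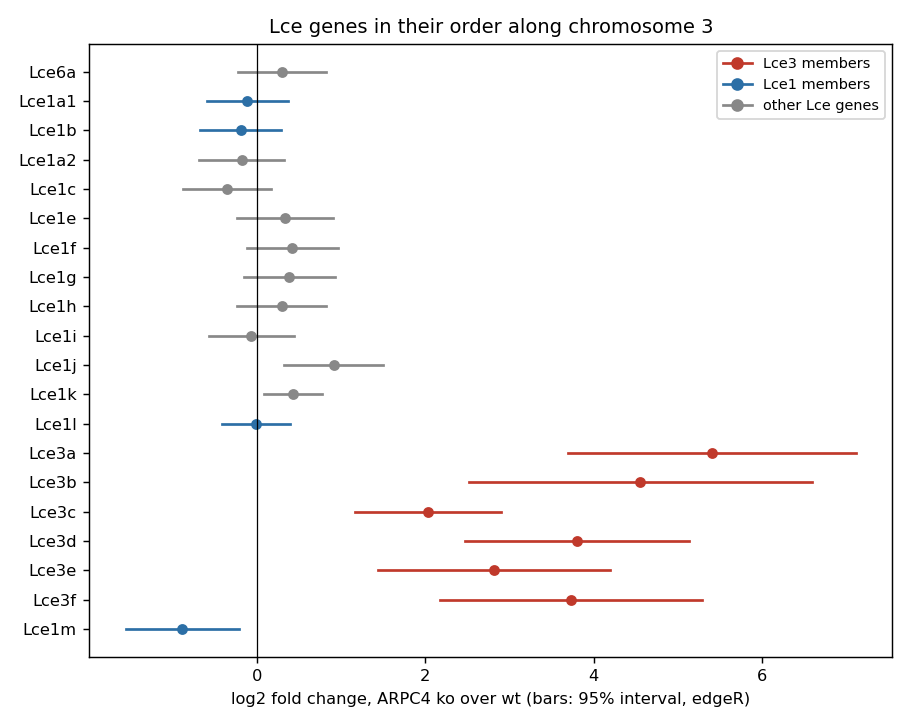
Log2 fold change, ko over wt, of the late cornified envelope genes, with 95% intervals from edgeR as lines, in order along the chromosome. The intervals of the Lce3 genes lie above 1.17, while those of Lce1a1, Lce1b and Lce1l include 0 and that of Lce1m lies below it. Of the other Lce genes, Lce1j and Lce1k have intervals above 0, that of Lce1j overlapping that of Lce3c, and the rest include 0.

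Within the Lce3 group the least abundant genes had the largest fold changes. Per kb of exon, Lce3c was first in both groups, at 167.9 CPM per kb in ko and 41.1 in wt. Lce3e followed with 38.0 in ko and 5.41 in wt, then Lce3d with 27.0 and 1.92, and Lce3f with 16.4 and 1.25 CPM per kb. Lce3b had 4.26 in ko and 0.184 in wt, and Lce3a 2.94 and 0.0590 CPM per kb. Neighbours in this order overlapped between libraries for Lce3e and Lce3d in ko, and for Lce3d and Lce3f and for Lce3b and Lce3a in both groups. Across the 6 genes the fold change ran from Lce3c, the lowest, to Lce3a, the highest, with Lce3e below Lce3f and Lce3d. The order was computed from the same libraries as the folds.

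The 4 Lce1 members lay between 268 and 1754 CPM per kb in ko and between 270 and 3246 in wt. In ko the mean of Lce3c, the top Lce3 gene, was below that of Lce1l, the lowest of these 4, but above those of Lce1j and Lce1k, which are no members, at 139.1 and 139.2 CPM per kb. Lce3c had an SD of 79.7 CPM per kb in ko, and its ko libraries overlapped those of Lce1l, Lce1j and Lce1k.

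**Figure D3:**
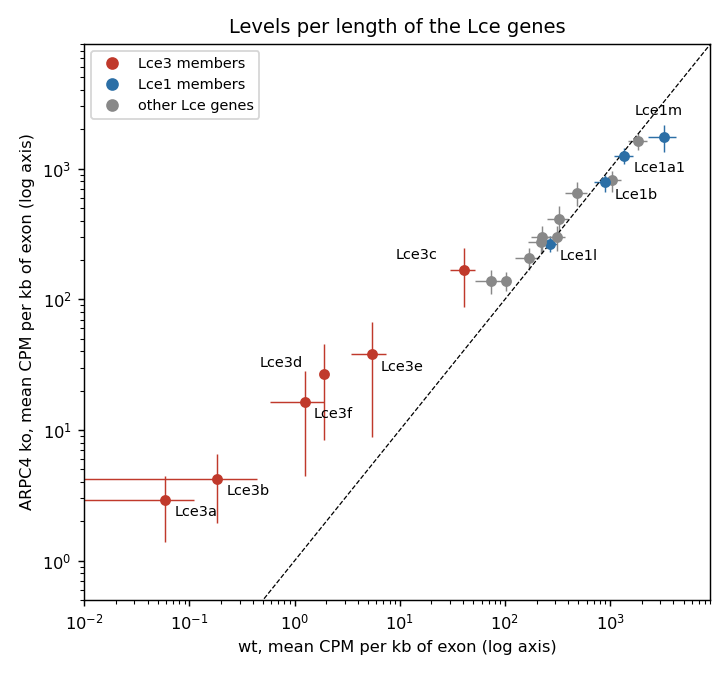
Mean level of each late cornified envelope gene in ko (y axis) against wt (x axis), in CPM per kb of exon, both axes log; lines are SD over 3 libraries and the dashed line marks equal levels. The Lce3 genes lie above the line and farther from it at lower levels, and the lower SD arms of Lce3a and Lce3b run past the edge of the axis.

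Summed over its members, the Lce3 group had 102.2, 238.1 and 96.5 CPM in ko, against 27.8, 36.5 and 21.04 CPM in wt. The means were 145.6 ± 80.2 CPM in ko and 28.4 ± 7.74 CPM in wt (SD, n = 3 each), a ratio of 5.12. Without ko replicate 2 the ko mean was 99.3 CPM and the ratio 3.49. Lce3c made up 61.7 to 73.2% of this sum in the ko libraries and 80.6 to 84.2% in the wt libraries, so the less abundant Lce3 genes took a larger share in ko.

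The 4 Lce1 members summed to 3771, 3295 and 2651 CPM in ko, against 4302, 6200 and 3907 CPM in wt. These sums averaged 3239 ± 562 CPM in ko and 4803 ± 1226 CPM in wt (SD, n = 3 each). Lce1m made up 47.3 to 55.8% of this sum in ko and 62.4 to 66.2% in wt.

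The Lce3 genes were also set against the 13 measured Lce1 genes, which include the 4 members. Of the reads counted for both sets, the Lce3 genes took 1.39, 3.22 and 1.77% in the ko libraries. In the wt libraries they took 0.378, 0.351 and 0.311%. The exact binomial 95% interval was 3.12 to 3.32% in ko replicate 2 and 0.349 to 0.408% in wt replicate 1, the highest library of each group, and covers counting error only. Averaged over genes on the log2 scale, the Lce1 members stood 6.90, 5.26 and 5.95 above the Lce3 genes in ko and 9.38, 9.28 and 9.65 above them in wt. The gap was smallest in ko replicate 2, and the groups did not overlap. No test is given for these sums and averages, because the members were chosen with results known.

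Close copies limit how far single genes can be told apart. Of the 51-base windows of the GENCODE transcripts, the read length, those also found in a transcript of another gene made up 18.6% in Lce3a, 11.7% in Lce3b, 35.4% in Lce3c, 48.8% in Lce3d, 43.6% in Lce3e and 48.0% in Lce3f. The partners were other Lce3 genes only. In Lce1a1, Lce1b and Lce1l the shares were 24.4, 23.4 and 9.19%, with other Lce1 genes and the predicted gene Gm38119 as partners, and Lce1m shared 0 windows. Reads placed in several positions were not in the gene counts, so a level leaves out part of the reads of such windows, and the part differs between genes. No window was shared between an Lce1 and an Lce3 gene. With the same counts divided by the number of unshared windows in place of the exon length, Lce3c stood at 285 CPM per kb in ko, Lce3e at 73.5, Lce3d at 58.6 and Lce3f at 34.4, and the order of the 6 stayed as above.

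**Figure D4:**
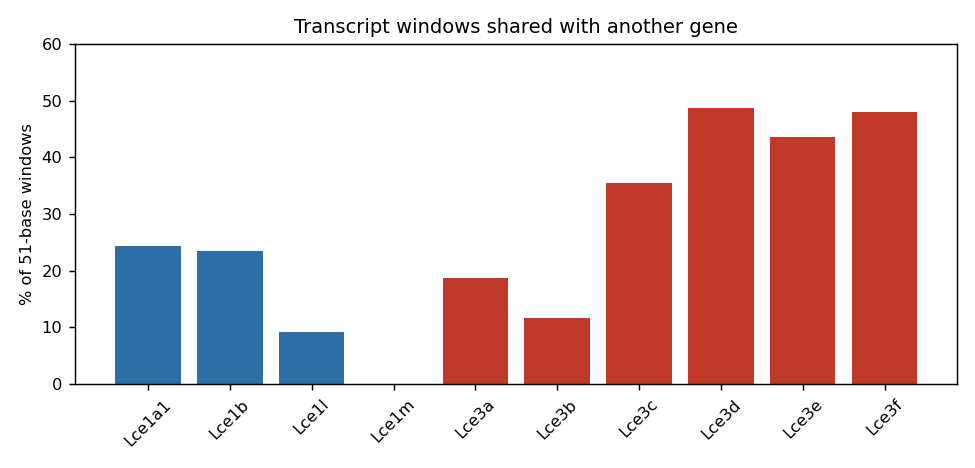
Percentage of each member's 51-base transcript windows that also occur in a transcript of another gene. The Lce3 genes lie between 11.7 and 48.8%, and Lce1m is at 0.

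Titles of 4 libraries carry a date and those of replicate 3 of each group do not. Among the 4 dated libraries, the Lce3 log2 fold changes ran from 2.04 to 4.75, and in the undated pair the log2 ratio of ko over wt ran from 1.89 to 5.02 (0.1 CPM added), with no test for a single pair. With the dated title as a covariate edgeR called all 6 Lce3 genes, with 3.20% of all genes called higher, and Lce1m (adjusted p = 0.0490), with 1.98% called lower. Among the dated libraries alone it called 0 of the 10 members. The Lce1 values were between -0.92 and 0.08 in the dated libraries and between -0.88 and -0.10 in the undated pair.

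The other 9 measured Lce1 genes and Lce6a had a median log2 fold change of 0.32. Of these 10 genes 0 were called by edgeR and 0 by DESeq2, and 2 were at an unadjusted edgeR p under 0.05. Lce1j had 82.1, 120.5 and 90.7 CPM in ko and 41.1, 70.0 and 44.8 CPM in wt, a log2 fold change of 0.91 (SE 0.25, edgeR adjusted p = 0.182). Lce1k had 84.4, 110.5 and 82.0 CPM in ko and 65.5, 73.7 and 66.6 CPM in wt, so that both genes, like the Lce3 genes, had every ko library above every wt library. The log2 fold change of Lce1k was 0.43 (edgeR adjusted p = 0.286), that of Lce1f 0.42 (0.504) and that of Lce1g 0.39 (0.553). Over all 13 measured Lce1 genes 6 were above 0 and 7 below, with a median of -0.011. Their summed level was 7248, 7160 and 5368 CPM in ko, against 7336, 10359 and 6742 CPM in wt, with overlapping groups. The level of Lce1d was not analysed here.

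The genes that flank the Lce3 stretch did not pass the test. Toward Lce1l lies 2310050C09Rik, with 840, 871 and 756 CPM in ko, against 753, 928 and 741 CPM in wt, and a log2 fold change of 0.026 (95% interval -0.35 to 0.40, edgeR adjusted p = 0.967). Between Lce3f and Lce1m lies Crct1, with 1391, 1428 and 1028 CPM in ko and 1543, 2230 and 1171 CPM in wt, and a log2 fold change of -0.36 (95% interval -1.02 to 0.29, edgeR adjusted p = 0.669). Of the other genes of the epidermal differentiation complex, edgeR called 7 of 46 tested genes higher and 0 lower, against 0.219% and 0% of all genes. They were Sprr2d, Sprr2b, Sprr1b and Sprr2e, which encode small proline-rich envelope proteins, Sprr2g of the same family, and S100a8 and S100a9, the subunits of calprotectin. Sprr2g is annotated as a polymorphic pseudogene. Of the same 46 genes, 18 had every ko library above every wt library, like the Lce3 genes, and 2 had every ko library below. Over all genes these shares were 11.3% and 8.03%.

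**Figure D5:**
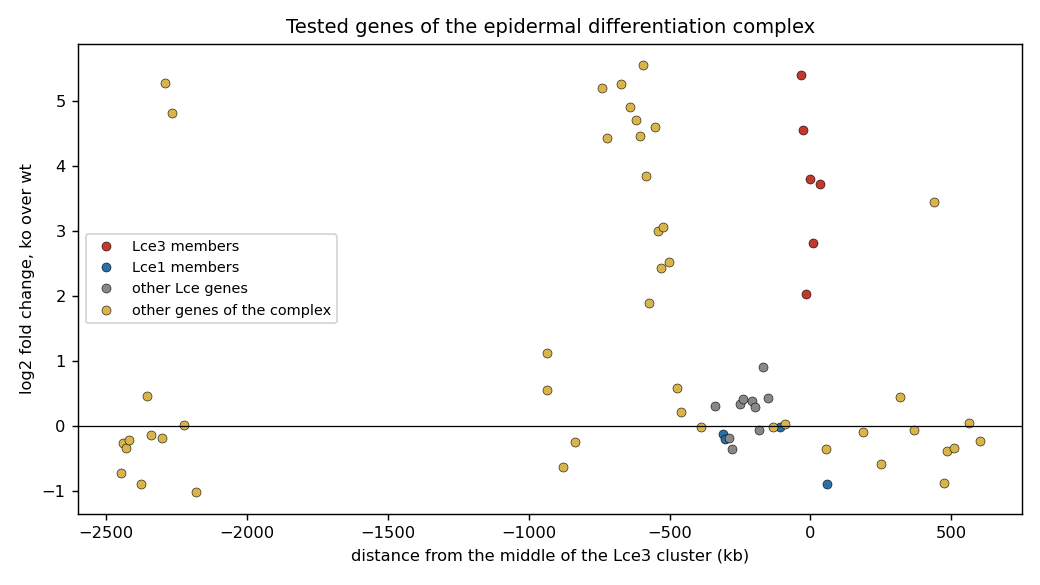
Log2 fold change, ko over wt, of the tested genes of the epidermal differentiation complex against distance in kb from the middle of the Lce3 stretch, 1 point per gene. The Lce3 genes form a run of tested genes above 2, between flanking genes near or below 0. Farther out, Sprr2b, Sprr2d and Sprr2e also lie in a run above 2.

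By mean absolute difference of centred log2 level over the 6 libraries, the genes most like the mean of the 5 Lce3 genes that averaged at least 1 CPM were Cyp11a1 (0.214), which encodes the enzyme that starts steroid hormone synthesis, Rptn (0.218), a filaggrin-family envelope protein, and Sprr1b (0.267). They were taken from 9938 candidates that averaged at least 5 CPM. Rptn had 537, 2134 and 523 CPM in ko, against 92.0, 139.98 and 60.1 CPM in wt, and ko replicate 2 was its highest library, as for most Lce3 genes. The genes most like the mean of the Lce1 members were Pet100 (0.0105), Romo1 (0.0345) and Bloc1s4 (0.0352).

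Of 9 core envelope and cross-linking genes edgeR called 0, with 0 at an unadjusted p under 0.05 and 0 by DESeq2. Loricrin (Lor), the main envelope protein, had a log2 fold change of -0.63 (edgeR adjusted p = 0.471), Flg2, a filaggrin-family protein, -0.59 (0.499), Tgm3, a transglutaminase, 0.45 (0.378) and Tgm1, another transglutaminase, 0.28 (0.710). Of 17 transcription factors of late differentiation edgeR called 0, while an unadjusted p under 0.05 was seen for 1 gene above 0 and 1 below, and DESeq2 called 1. Hes1, a Notch target, had a log2 fold change of -0.83 (edgeR adjusted p = 0.331).

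Of 7 AP-1 genes edgeR called 0, with 1 at an unadjusted p under 0.05 and 0 by DESeq2. All 7 lay above 0, between 0.14 and 0.56, with Fosb at 0.56 (edgeR adjusted p = 0.226). Nfe2l2, which encodes Nrf2, was at 0.41 (edgeR adjusted p = 0.222) and Keap1, its inhibitor, at -0.13 (0.669).

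Markers of some other cells had higher sums in the libraries labelled ko. In bulk RNA, a change in the number of cells of a type and a change in RNA per cell cannot be told apart. Of 7 tested endothelial markers all 7 were higher at an unadjusted p under 0.05, with 0 called by edgeR and 7 by DESeq2, and the 8 listed summed to 13.2 to 25.4 CPM in ko and 4.999 to 5.58 CPM in wt. Of 8 fibroblast markers 7 were higher at that p, with 0 called by edgeR and 5 by DESeq2, and they summed to 927 to 1923 CPM in ko and 169 to 430 CPM in wt. The endothelial sum, at 24.3, 25.4 and 13.2 CPM in ko replicates 1, 2 and 3, was highest in ko replicate 2, as was the Lce3 sum. Of the fibroblast markers Col3a1 (248, 368 and 70.7 CPM in ko replicates 1, 2 and 3), Lum and Pdgfra were also highest in ko replicate 2, and these and Fbn1 were lowest in ko replicate 3. The fibroblast sum was highest in ko replicate 3, and Postn held more of its ko counts (47610) than any other marker. Langerhans cell and macrophage markers (7 of 7 above 0, 1 at an unadjusted p under 0.05) summed to 84.6 to 124.9 CPM in ko and 58.9 to 103.2 CPM in wt. The 5 neutrophil markers summed to at most 0.210 CPM in any library, with Ly6g at 0 counts in all 6, and 0 of them passed the filter. The 4 melanocyte markers, 3 of them higher at an unadjusted p under 0.05, summed to 71.7 to 117.9 CPM in ko and 57.1 to 66.6 CPM in wt, and of 4 T cell markers 0 were at that p. Granular-layer markers, 3 genes, summed to 16731, 15952 and 10923 CPM in ko, against 19275, 27241 and 15324 CPM in wt, and basal markers to 2430, 3730 and 8962 CPM in ko and 5407, 1660 and 6662 CPM in wt. The part of these in the Lce values was not tested.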

How the data were processed

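The authors deposited raw counts of reads per Ensembl gene, 1 file per library. Per the labels' protocols, TRIzol was used for total RNA, and a stranded mRNA kit gave libraries read as 51 bp single ends. TopHat2 2.0.12, Bowtie 1.1, HTSeq and mm10 are named in the submitters' processing notes; which strand option, settings and annotation they used is not stated in those notes. Rows for reads without a gene were left out of all library sizes.

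Symbols matched 40254 of 41214 identifiers, and GENCODE M21 gave positions for 40340. edgeR 4.0.16 (R 4.3.3) with TMM scaling, the filterByExpr filter and a robust quasi-likelihood fit tested all genes, ko over wt, over 3 against 3 libraries, with Benjamini-Hochberg adjustment at 0.05. CPM use the same scaling. DESeq2 1.42.0, limma-voom (limma 3.58.1), other scalings and filters, the dated libraries alone or as a covariate, a replicate block and leaving out each library were alternatives.

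The members and lists were chosen with earlier results of these data known. All 10 members were named. From the other lists, genes called and up to 4 with the smallest p were named. The values of 1 listed transcription factor are not reported here. The words ATAAAA and TTGTGAAA and the levels per unshared window were chosen after seeing the data, as was the choice of printed promoters, which came from RefSeq (GRCm38.p6). Promoter identity used global alignments in Biopython 1.88 (match 2, mismatch -1, gap opening -5, gap extension -1).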

Additional observations from a re-analysis of the deposited data

How the results depend on the processing

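All 6 Lce3 genes were above 0 in all 100 fits of a member under 17 alternatives, with log2 fold changes from 1.57 to 6.38, whereas the calls depended on the test. Against 1 Lce3 gene and 30 genes in all called by edgeR, DESeq2 called 6 Lce3 genes, 1 Lce1 gene (Lce1m) and 650 genes, and the dated title as a covariate 6, 1 and 709. Without a filter on low counts 2 Lce3 genes and 57 genes were called. A filter of 1 CPM in 3 libraries, which removes Lce3a and Lce3b, gave 0 and 18. The older quasi-likelihood fit gave 0 and 18, the dated libraries alone 0 and 227, and limma-voom 0 and 0. Leaving out 1 library gave 0 to 1 Lce3 genes and 0 to 64 genes; 0 genes were called without ko replicate 2 or any wt replicate, where 1229 to 2350 were at an unadjusted p under 0.05. With 1 library left out the median log2 fold change of the Lce3 genes ran from 3.02 (without ko replicate 2) to 4.08, the log2 fold change of Lce1a1 from -0.26 to 0.051 and that of Lce1l from -0.18 to 0.092. In the dated libraries alone Lce1l was above 0, at 0.080. Same-numbered libraries did not all pair: their deviations from the group means correlated at -0.19, 0.47 and 0.67. Among the wt libraries, ko replicates 2 and 3 correlated best with the one of their own number. In contrast, ko replicate 1 correlated best with wt replicate 2 (0.51). The fit with the replicate number as a block called all 6 Lce3 genes, 0 Lce1 genes and 354 genes. With counts divided by the number of unshared windows, levels were 1792 CPM per kb in ko for Lce1a1, 1111 for Lce1b and 318 for Lce1l. Scaling by DESeq2 size factors, upper quartiles or total counts left the calls among the members as they were. Windows unique in the genome were not run, and the causes of the other shifts were not tested. Fewer than 10 wt counts for Lce3a and Lce3b limit their folds.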
